A study of Mus musculus with 2 samples.

Results

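Cadherin and protocadherin genes were described here by their H3K27me3 peaks in mouse rib chondrocytes. Members were the genes whose symbol began with Cdh or Pcdh, followed by digits or lower-case letters, and Cdh22 was left out by the rule. The gene table held 97 such genes, and 26 of them had at least 1 of the 19359 H3K27me3 peaks within 5 kb of the gene, among 4987 gene symbols with a peak in the whole data set. The 26 genes stood in 21 gene records, because Pcdha9, Pcdha10, Pcdha11, Pcdha12, Pcdhac1 and Pcdhac2 shared a single record, and 77 distinct peaks were joined to them. Throughout, a gene is called marked when a peak was joined to it within this distance.

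Rib chondrocytes of newborn, wild-type mice of the CD1 stock were cultured overnight in DMEM with 10% serum. Chromatin was cut enzymatically, and 1 library of DNA precipitated with an antibody to H3K27me3 (17574613 tags) and 1 library of input DNA (17369199 tags) were made. Titles were used to tell ChIP from input, and the antibody tags are the other way round. If the tags were right, each fold enrichment would be that of input over ChIP. The header of the peak file names a ChIP and a control library, but by index names that the labels do not carry. In the direction of the titles, a peak of 43.6 kb covered the start of Olig2, a neural gene known as a PRC2 target in many cell types. There were no replicates, so no comparison could be tested against a spread between samples, and the Wilson 95% intervals given for shares cover counting error only. RNA was not analysed here. None of 8 genes that define chondrocytes (Col2a1, Acan, Sox9, Col9a1, Col11a2, Matn1, Comp and Hapln1) had a peak, but the interval of this share reaches 32.4% and so holds the 20.7% of all protein-coding genes with a peak.

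Cadherins are calcium-dependent adhesion molecules with repeated extracellular domains. Classical cadherins bind the same molecule on the neighbouring cell and are tied to the actin cytoskeleton by catenins, whereas protocadherins lack the catenin-binding tail and are best known from neurons, in which the clustered genes give each cell its own surface identity. H3K27me3 is the histone mark deposited by polycomb repressive complex 2 (PRC2) and is found at genes held silent in a given cell type. In developing cartilage, N-cadherin is known from the condensing mesenchyme that precedes the chondrocytes.

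The groups of the family differed widely in how many genes were marked. Of all 97 genes, 26.8% were marked (interval 19.0% to 36.4%), against 20.7% of 21887 protein-coding genes, which lies within that interval. All 5 type I classical cadherins (Cdh1, Cdh2, Cdh3, Cdh4 and Cdh15) had a peak, which sets the lower bound of their share at 56.6%. Only 3 of 12 type II classical cadherins were marked (25.0%, interval 8.89% to 53.2%), a share close to the background. Among the other cadherins 5 of 10 had a peak (Cdh13, Cdh23, Cdhr1, Cdhr2 and Cdhr3), and among the single protocadherins 7 of 12 did (58.3%, interval 32.0% to 80.7%). The clustered protocadherins were at the low end, with 6 of 58 genes marked (10.3%, interval 4.83% to 20.8%), but this share was 24.1% with gene table positions and 1.72% with each peak given to the nearest start. Without the clustered genes, 20 of 39 members were marked (51.3%, interval 36.2% to 66.1%). Neighbouring genes that share a peak or a record are not independent, and this holds most for the clustered genes.

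**Figure D1:**
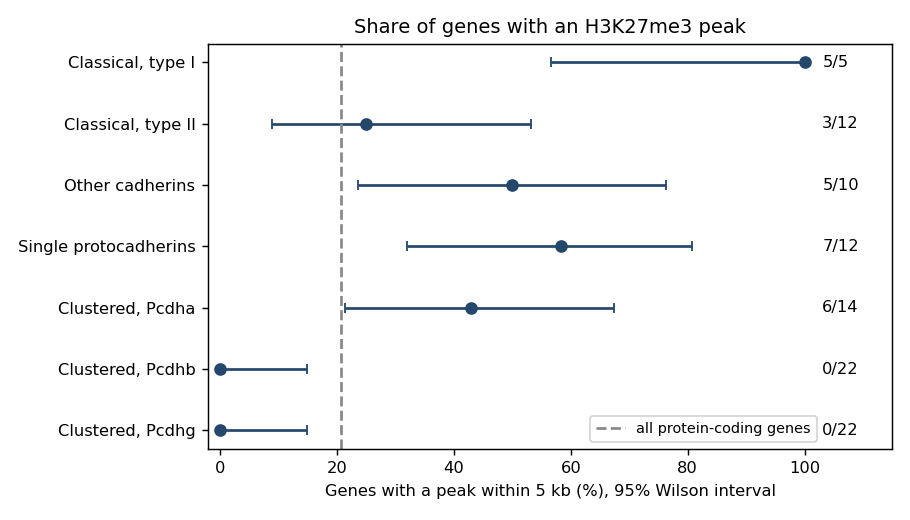
Share of genes with an H3K27me3 peak within 5 kb (x axis, percent) for each group of cadherin and protocadherin genes (y axis), as points with Wilson 95% intervals and the number of marked genes over all genes at the right. The dashed line is the share over all protein-coding genes, 20.7%, and the Pcdhb and Pcdhg groups lie at 0 of 22 genes each.

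Many members are long genes, which offer more room for a peak. Outside the clusters, 10 of 18 members of 100 kb or more were marked (55.6%, interval 33.7% to 75.4%), against 34.0% of all protein-coding genes of that length. Of the 21 shorter members 10 were marked (47.6%, interval 28.3% to 67.6%), against 19.1% of shorter protein-coding genes. Both shares were above the background of their length class, although the interval of the long members just reaches it. A peak over the gene body itself was found in 24 of 97 members (24.7%, interval 17.2% to 34.2%), against 14.2% of protein-coding genes. Of these 24, 6 were Pcdha genes that share a single record and its peaks, so the interval is too narrow. Outside the clusters 18 of 39 members had such a peak (46.2%). The 14.2% covers genes of every length and was not matched to the members.

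A peak covered the 5′ end in 6 of 97 members (6.19%, interval 2.87% to 12.8%), a share close to the 4.45% of protein-coding genes. These were Cdh1, Cdh3, Cdh8, Cdhr1, Pcdh8 and Pcdh12, of which 5 were under 100 kb long. In Cdh2 and Pcdh15 the start itself was free and peaks lay within 5 kb on both sides, and 10 further records had a peak on a single side within that distance. In total, 18 of 21 member records (85.7%) had a peak within 5 kb of the start, against 78.7% of the 4934 records with a symbol in the whole peak table.

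**Figure D2:**
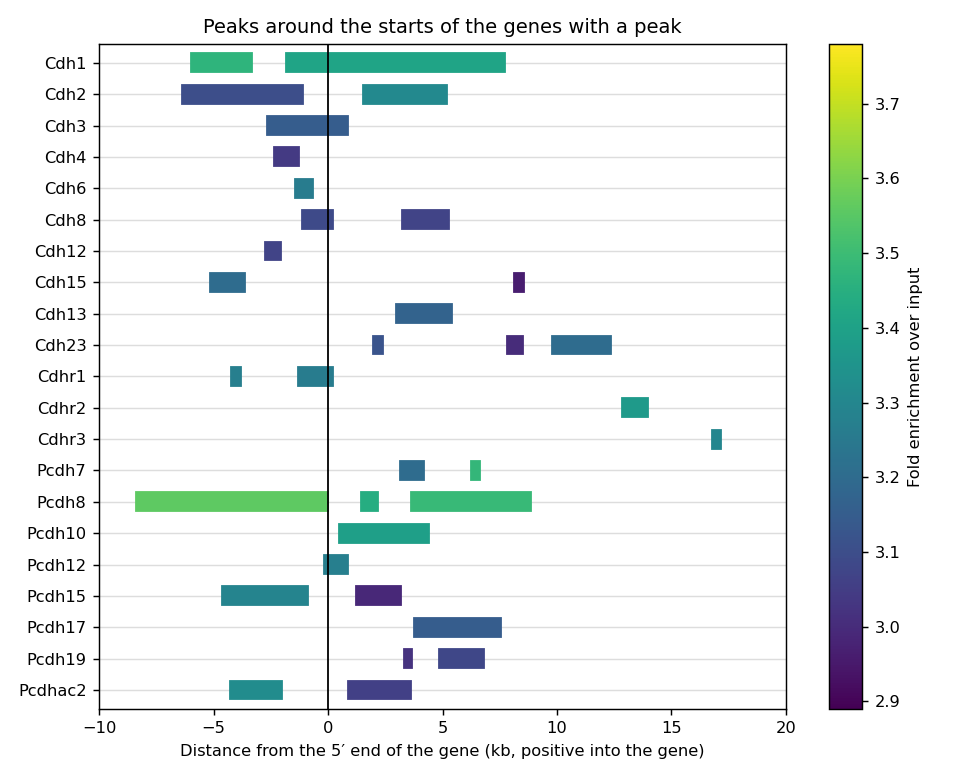
Peaks (bars, coloured by fold enrichment over input) around the 5′ end of each marked gene (y axis), with distance in kb on the x axis, positive into the gene; the 6 Pcdha genes of the shared record are drawn at Pcdhac2. The bars of Cdh1, Cdh3, Cdh8, Cdhr1, Pcdh8 and Pcdh12 cross the line at 0, and Cdh2, Cdh15, Pcdh15 and Pcdhac2 have a bar on each side without crossing it.

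The 250 bases upstream of the start that the RefSeq promoter table gives (GRCm38.p6) were read for its 26 members, 14 marked and 12 unmarked. The table uses 1 start per gene, which in Cdh12, Cdh18 and Pcdh15 lies 663, 488 and 726 kb inside the outermost start of the gene table. For Pcdh15 it is therefore not the start beside its peaks. In 3 of them, Pcdh8, Cdh8 and Cdhr1, the whole stretch lay under a peak, and these are printed 5′ to 3′ on the strand of the gene with each CG dinucleotide in capitals. Pcdh18, an unmarked protocadherin with the largest number of CG dinucleotides among the 26, is printed beside them. All 4 genes lie on the minus strand. The windows are chr14:79771313-79771562 for Pcdh8, chr8:99416472-99416721 for Cdh8, chr14:37098348-37098597 for Cdhr1 and chr3:49757317-49757566 for Pcdh18.
Pcdh8: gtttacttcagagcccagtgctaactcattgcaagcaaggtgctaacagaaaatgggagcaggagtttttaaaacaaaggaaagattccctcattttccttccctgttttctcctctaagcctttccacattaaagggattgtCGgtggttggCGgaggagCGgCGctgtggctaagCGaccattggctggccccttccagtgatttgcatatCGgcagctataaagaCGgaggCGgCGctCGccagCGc
Cdh8: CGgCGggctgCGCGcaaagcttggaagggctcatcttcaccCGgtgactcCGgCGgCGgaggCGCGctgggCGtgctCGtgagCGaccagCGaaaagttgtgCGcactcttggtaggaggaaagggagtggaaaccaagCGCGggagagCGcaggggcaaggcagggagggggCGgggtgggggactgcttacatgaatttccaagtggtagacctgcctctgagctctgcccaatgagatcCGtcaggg
Cdhr1: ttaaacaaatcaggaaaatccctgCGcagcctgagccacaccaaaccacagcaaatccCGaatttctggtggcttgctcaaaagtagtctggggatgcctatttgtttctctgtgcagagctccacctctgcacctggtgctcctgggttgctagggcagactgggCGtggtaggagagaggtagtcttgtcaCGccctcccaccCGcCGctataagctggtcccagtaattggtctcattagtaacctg
Pcdh18: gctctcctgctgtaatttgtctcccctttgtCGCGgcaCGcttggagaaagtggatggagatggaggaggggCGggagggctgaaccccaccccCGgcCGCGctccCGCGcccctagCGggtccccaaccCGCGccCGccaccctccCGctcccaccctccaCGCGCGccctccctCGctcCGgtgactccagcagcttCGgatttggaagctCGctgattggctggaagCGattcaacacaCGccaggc
The promoter of Pcdh8 held 11 CG dinucleotides, a ratio of observed to expected of 0.67. In Cdh8 there were 20 and the ratio was 0.83. In Cdhr1 there were 6 and the ratio was 0.34. The 3 promoters under a peak therefore spanned CG-poor and CG-rich sequence, and Pcdh18 with 23 CG dinucleotides and a ratio of 0.81 stood close to Cdh8 without a peak. Across the table the median ratio was 0.40 in the marked and 0.42 in the unmarked members, against 0.56 in marked and 0.53 in unmarked protein-coding genes. A ratio over 0.6 was found in 4 of 14 marked members (Cdh8, Pcdh8, Pcdh10 and Pcdh17) and in 5 of 12 unmarked members, against 45.2% of all 17492 protein-coding promoters. The highest ratio of the 26, 0.88, belonged to Pcdh10, whose peak began 471 bp inside its start. The ratios overlapped almost wholly, from 0.05 to 0.88 in marked and from 0.00 to 0.81 in unmarked members.

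Type I classical cadherins carried peaks of 3 kinds, over the start, beside the start and along the gene. Cdh1, which encodes E-cadherin of epithelia, had 3 peaks (GRCm38, chromosome 8). The widest peak of any member, 9.57 kb (106601499 to 106611069), covered its start and reached 7717 bp into the gene at a fold enrichment of 3.41 and a mean q-value of 0.0116. A 2.66 kb peak (106597370 to 106600029) ended 3323 bp upstream of the start at a fold of 3.47, and a 1.14 kb peak near the 3′ end had a fold of 3.07. Fold enrichment is the ChIP pileup divided by the input background, with 1 added to each. The pileup is a depth of coverage by fragments and not their number over the whole peak. For many member peaks the background was the genome-wide value of 2.67, so their fold follows the pileup alone. Cdh3, the neighbour of Cdh1 on the same strand, encodes P-cadherin. It had a single 3.52 kb peak over its start (106508264 to 106511781, fold 3.15, q-value 0.0381).

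Cdh2, which encodes N-cadherin of mesenchyme and nerve, had 6 peaks summing to 13.6 kb. A 5.31 kb peak ended 1084 bp upstream of its start (fold 3.10) and a 3.71 kb peak began 1507 bp into the gene (fold 3.31), and no peak was called over the start itself. The highest fold enrichment of all member peaks, 3.78, was in a 319 bp peak 151 kb into Cdh2 (q-value 0.00318). The other 3 peaks of the gene, 58.4 kb, 156 kb and 164 kb from the start, had folds of 3.07, 3.29 and 3.16.

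Cdh4, which encodes R-cadherin of retina and brain, had 18 peaks, the most of any member, summing to 18.3 kb. One lay 1275 bp upstream of the start (1.07 kb, fold 3.04), and the first inside the gene came 80.0 kb from the start. The 17 inside the gene had folds from 2.89 to 3.47. They were low and narrow peaks, the widest 2.11 kb, and 7 of the 18 had a mean q-value at or under 0.05. Cdh15, which encodes M-cadherin of muscle, had a 1.49 kb peak 3647 bp upstream (fold 3.20) and a 436 bp peak inside (fold 2.96, at the lowest pileup called). Both were also joined to Galnt2.

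The 3 marked type II classical cadherins had 1 or 2 peaks each. Cdh22, a type II cadherin that the rule left out, had 16 peaks summing to 128 kb. Cdh8, a cadherin of the brain, had a 1.37 kb peak over the start (chromosome 8, 99416259 to 99417626, fold 3.09, q-value 0.0578) and a 2.08 kb peak 3212 bp into the gene (fold 3.07, q-value 0.066). By the gene table, in which the gene begins farther upstream, the first of these lies just inside the gene. Cdh6, which encodes K-cadherin of kidney, had 1 peak of 802 bp that ended 646 bp upstream of the start (fold 3.26, q-value 0.0305). Cdh12, another cadherin of the brain, had 1 peak of 696 bp that ended 2056 bp upstream (fold 3.07, q-value 0.0652). No peak touched the body of Cdh6 or Cdh12 as their records give it, although the gene table draws both genes longer and over the peak. The members nearest to the 5 kb limit were thus Cdh12 inside it and Cdhr5, at 18.1 kb from a peak, outside it.

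The other cadherins carried peaks mostly inside the gene. Cdh23, a long cadherin of the tip links of hair cells, had 13 peaks summing to 20.6 kb, the largest sum of any member, with folds from 2.96 to 3.42. The first began 1972 bp from the start and the widest was 4.34 kb, 88.5 kb into the gene. Cdh13, which encodes T-cadherin, a cadherin held by a lipid anchor, had 9 peaks summing to 8.29 kb over 1041 kb, at folds from 2.96 to 3.24. Cdhr2, a cadherin of intestinal microvilli, had 4 peaks summing to 13.8 kb, all more than 12 kb from the start. The third of them, 2.42 kb at a fold of 3.39, crossed the 3′ end, and the widest, 7.27 kb at a fold of 3.32, lay wholly downstream of the gene. The last 3 of these peaks were also joined to the neighbouring gene Gprin1. Cdhr1, a cadherin of photoreceptors, had a 1.56 kb peak over the start (fold 3.26, q-value 0.0293) and a 414 bp peak 3814 bp upstream (fold 3.27). Cdhr3, an airway cadherin, had a single 368 bp peak 16.8 kb into the gene (fold 3.30).

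Along the long genes the peaks were spread in some and gathered at the start in others. Cdh4 held 37.2 peaks per Mb of gene body, Cdh23 33.0 and Cdh2 22.7, whereas 67.7% of the 2427 protein-coding genes of 100 kb or more held none and the upper quartile was 4.37 per Mb. The value of Cdh4 was at or above that of 94.9% of these genes. Cdh13 held 7.60 peaks per Mb, near the autosomal mean of 7.81. These values use the gene bodies of the gene table. Pcdh7 held 4.80 per Mb and Pcdh15 1.29, or 0.646 by its shorter deposited record, which leaves its first peak upstream. Neither had a peak beyond the first 10 kb from the start of its record.

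**Figure D3:**
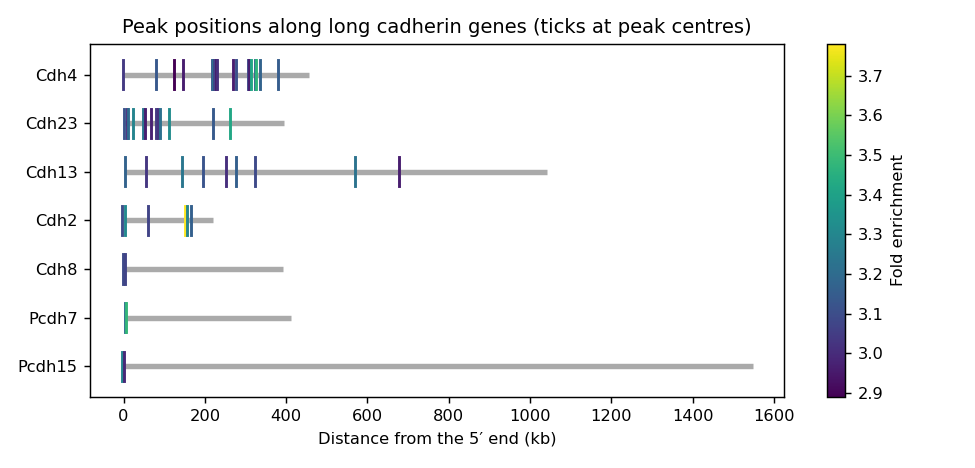
Peaks (vertical ticks at peak centres, coloured by fold enrichment) along 7 long genes (grey bars, y axis), with the distance from the 5′ end in kb on the x axis. Cdh4, Cdh23, Cdh13 and Cdh2 have ticks along the gene, and the 2 ticks each of Cdh8, Pcdh7 and Pcdh15 stand at the start.

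Single protocadherins carried their peaks near the start. All 12 peaks joined to them lay at least partly within 10 kb of the 5′ end, against 12 of 34 for the classical cadherins (35.3%, interval 21.5% to 52.1%), 6 of 29 for the other cadherins (20.7%) and 57.2% of all 11947 pairs of a peak and a record. Of the 34 classical peaks 18 belonged to Cdh4, and without this gene 11 of 16 lay that near (68.8%, interval 44.4% to 85.8%), so the low classical share rests on Cdh4. Gene length bears on this share, which was 28.7% over all records of 100 kb or more and 29.3% over member records of that length. Pcdh7, Pcdh15 and Pcdh19 are that long, whereas Pcdh8 is so short that its 3 peaks could hardly lie farther away. The median fold of these 12 peaks was 3.28 and their median width 1.96 kb, and 10 of 12 had a mean q-value at or under 0.05. For the 34 peaks of classical cadherins the median fold was 3.12, the median width 1.21 kb and 16 had such a q-value. Differences of this size between peaks of a single library have no replicate check.

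Pcdh8, a protocadherin of paraxial mesoderm and brain, was the most heavily marked of them, with 3 peaks summing to 14.4 kb around a gene of 4.54 kb. An 8.40 kb peak (chromosome 14, 79771303 to 79779700) lay upstream and reached 9 bp into the gene at a fold of 3.56 and a q-value of 0.00522. A 750 bp peak inside the gene had a fold of 3.44. A 5.27 kb peak (79762436 to 79767701) covered the 3′ end at a fold of 3.49 and a q-value of 0.00809. Together they covered 37.2% of the gene, and Pcdh8 and Cdh2 were the 2 members with a peak at a q-value of 0.01 or less.

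The other single protocadherins had 1 or 2 peaks each. Pcdh10, a protocadherin of the nervous system, had a 3.94 kb peak from 471 bp inside the start (chromosome 3, 45378870 to 45382812, fold 3.39, q-value 0.0161). Pcdh17 of the brain had a 3.80 kb peak from 3735 bp inside (fold 3.15). Pcdh12 of endothelium had a 1.05 kb peak over its start (fold 3.27). Pcdh15, the partner of Cdh23 in the tip link, had a 3.79 kb peak ending 861 bp upstream (fold 3.29) and a 1.97 kb peak from 1228 bp inside (fold 2.99), with none in the rest of its 1547 kb. By the gene table the first of these covers the outermost start of Pcdh15. Pcdh7 had peaks of 1.06 kb and 413 bp, 3130 bp and 6235 bp inside, at folds of 3.20 and 3.48. Pcdh19, an X-linked protocadherin of the brain, had peaks of 358 bp and 1.95 kb, 3323 bp and 4864 bp inside, at folds of 3.02 and 3.08. Peaks at or just inside the start were thus found in short and very long genes of this group.

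Clustered protocadherins lie in 3 arrays on chromosome 18, where each variable first exon has its own promoter and the exons of the alpha and gamma arrays are spliced to shared constant exons. The 14 Pcdha genes span 259 kb and held 2 peaks. The 22 Pcdhb genes (256 kb) and the 22 Pcdhg genes (180 kb) held none, for which the Wilson interval reaches 14.9% in each. This interval takes genes as independent. The Pcdhg genes overlap and nearly all end at the same place, so 14.9% is not a usable limit for them. The 2 peaks were 2.26 kb wide (37139385 to 37141643, fold 3.32, q-value 0.0236) and 2.74 kb wide (37144559 to 37147299, fold 3.06, q-value 0.0688). They lay on the 2 sides of the start of Pcdhac2, the first ending 2.04 kb upstream and the second beginning 0.881 kb downstream. Pcdhac2 is one of the C-type isoforms and is the last variable exon of the alpha array. The other 5 marked genes, Pcdha9, Pcdha10, Pcdha11, Pcdha12 and Pcdhac1, were marked because the record that runs through this position lists their symbols. Pcdha1 to Pcdha8 were unmarked by the rule, since the record does not list them, although their spans in the gene table also run through both peaks.

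How many clustered genes count as marked therefore rested on how peaks were given to genes. With whole gene spans from the gene table all 14 Pcdha genes took in the peaks, which makes 24.1% of the 58 clustered genes, and with each peak given to the nearest start Pcdhac2 alone remained, which makes 1.72%. After the second peak no peak was called for 876 kb, a stretch holding every Pcdhb and Pcdhg gene, and the stretch before the first peak was 331 kb long. Of 19202 gaps between neighbouring peaks on autosomes, 3.17% were as long as 876 kb or longer, and the median gap was 6.69 kb. This share counts gaps and not the length they span, so the part of the autosomes inside such gaps is larger. The Pcdhb and Pcdhg genes themselves lay 118 to 371 kb from the nearest peak. The median over unmarked protein-coding genes was 117 kb.

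**Figure D4:**
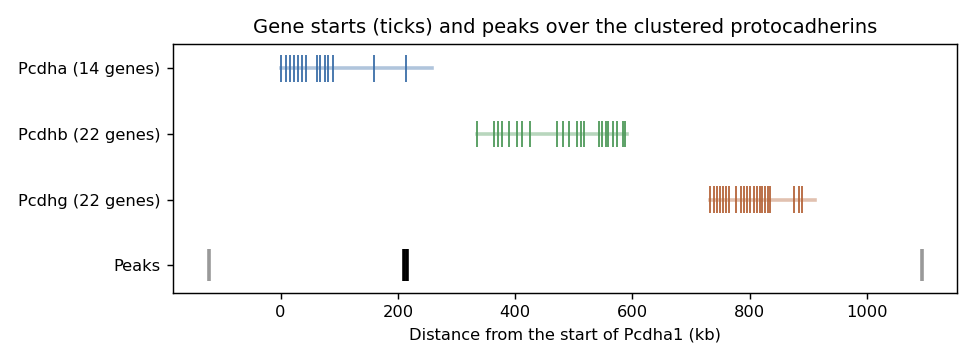
Starts of the clustered protocadherin genes (coloured ticks, by array, y axis) and H3K27me3 peaks (bottom line, black for the 2 peaks in the Pcdha array and grey for the nearest peak on either side), with the distance from the start of Pcdha1 in kb on the x axis. Both black ticks stand at Pcdhac2, the last tick of the Pcdha array, and the Pcdhb and Pcdhg arrays lie in the 876 kb without a peak.

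The 19 unmarked members outside the clusters fell into those close to peaks and those far from any. The median distance from the gene to the nearest peak was 782 kb, and 9 of 19 lay over 1 Mb from a peak. Over the 17096 unmarked protein-coding genes on chromosomes that held a peak the median was 117 kb, and 9.84% lay that far. The unmarked other cadherins, Cdhr5, Cdh26, Cdh16, Cdhr4 and Cdh17, lay 18.1 to 277 kb from a peak. Pcdh1 was 20.4 kb, Cdh5 (VE-cadherin of endothelium) 26.5 kb and Cdh24 60.5 kb away. Pcdh18 lay 548 kb and Cdh20 782 kb from the nearest peak.

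Beyond 1 Mb lay Cdh11 (OB-cadherin of mesenchyme and bone, 1385 kb), Cdh18 (1440 kb), Cdh10 (2092 kb), Cdh7 (3086 kb), Cdh9 (3553 kb), Cdh19 (3992 kb), Pcdh20 (4014 kb), Pcdh9 (7752 kb) and Pcdh11x (12614 kb, on the X chromosome). Several of them shared a stretch without a peak. Pcdh20 and Pcdh9 lay in the same 17194 kb of chromosome 14, and Cdh7 and Cdh19 in the same 11422 kb of chromosome 1. On chromosome 15 the peaks upstream of Cdh6 and Cdh12 followed each other at a distance of 7934 kb, with Cdh9 and Cdh10 between them. Cdh11 shared its 4753 kb with Cdh5. Within these stretches enrichment under the caller's lowest pileup of 9.86 fragments was not detectable at this depth, and how much of each stretch could be aligned was not tested.

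Peaks at members were of ordinary height and none was broad. Their median fold was 3.16 (quartiles 3.07 and 3.29) and their median width 1.24 kb, against 3.18 and 1.41 kb over the 10238 peaks joined to any symbol and 3.16 and 1.27 kb over all peaks. None of the 77 reached 10 kb, against 5.12% of peaks joined to a symbol and 3.46% of all peaks. The q-value was at or under 0.01 in 3 of 77 (3.90%), against 13.7% and 11.0%. Of the 16 peaks of Cdh22, which the rule left out, 5 were of 10 kb or more and 6 had a q-value of 0.01 or less, so the lack of broad peaks holds for the members as defined. Inside the gene lay 62 of the 77 peaks (80.5%, interval 70.3% to 87.8%), against 58.7% of all pairs of a peak and a record. This share rests on Cdh4, Cdh23 and Cdh13, without which 23 of 37 peaks lay inside (62.2%, interval 46.1% to 75.9%). Over member records of 100 kb or more it was 89.7%, against 83.5% of all records of that length. The 30 peaks within 10 kb of a start were wider (median 1.75 kb) than the 47 farther away (1.06 kb), at median folds of 3.20 and 3.14.

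**Figure D5:**
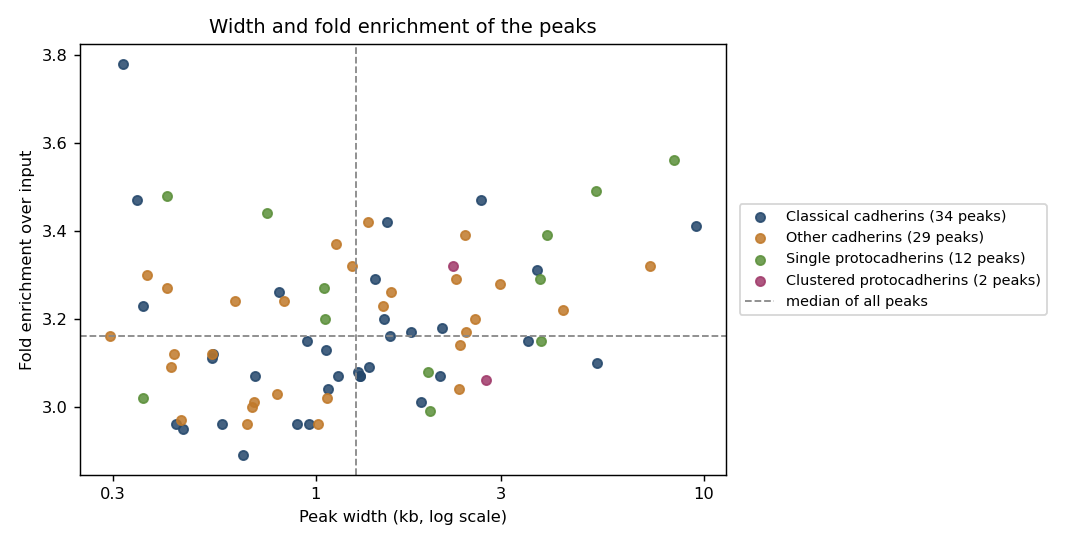
Width (x axis, kb, log scale) against fold enrichment over input (y axis) for the 77 peaks at members, coloured by group, with dashed lines at the medians of all peaks (1.27 kb and 3.16). The peaks of single protocadherins include the highest of the wide peaks, and the highest point of all, 3.78, is a narrow peak of a classical cadherin.

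Genes that work with cadherins were compared as a list of 45, of which 16 were marked (35.6%, interval 23.2% to 50.2%), against 20.7% of all protein-coding genes and 34.0% of those of 100 kb or more. The start was covered in 3 of the 45 (Pkp1, Celsr3 and Snai3), against 4.45% of protein-coding genes. With so few genes, the intervals of the smaller lists are wide. Of 13 catenins, plakophilins and related linkers, which tie cadherins to the cytoskeleton, 6 were marked (Ctnna2, Ctnna3, Ctnnd2, Pkp1, Pkp2 and Pkp3), and Ctnnb1, Ctnna1, Ctnnd1, Jup, Ctnnal1, Vcl and Pkp4 were not. Pkp1 had the widest of these peaks, 15.0 kb at a fold of 3.37. None of 9 desmosomal cadherins had a peak (interval up to 29.9%). Of 12 large or distant cadherins 5 were marked, namely Fat2, Celsr1, Celsr2, Celsr3 and Clstn2, with a 10.2 kb peak over the start of Celsr3 at a fold of 3.65. Of 7 repressors of cadherin genes Snai3, Zeb2, Twist1 and Twist2 were marked, the widest peak being 12.8 kb near Twist1 at a fold of 3.19. Of 4 regulators of the clustered genes only Wiz was marked.

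Genes that define other cell types were looked up because the culture may hold such cells. A peak was found at Kdr of 3 endothelial genes, at Epcam and Krt5 of 3 epithelial genes and at Neurod1 and Olig2 of 3 neural genes. The intervals run from 6.15% to 79.2% for 1 of 3 and from 20.8% to 93.9% for 2 of 3. The share over all protein-coding genes was 20.7%. The peak joined to Krt5 did not touch the gene (fold 3.01, q-value 0.069). Epcam, like Cdh1, had a peak over its start, and its highest fold was 3.87. The part of other cells in the peaks at members was not tested.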

How the data were processed

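Wild-type chondrocyte chromatin was measured in 1 H3K27me3 ChIP and 1 input library, grouped by title. According to the submitters' processing notes, CASAVA 1.8.4, Bowtie2 and MACS2 were used with mm10. Per the file headers, the authors called broad peaks with MACS 2.1.0.20140616 (fragment length 294 bp, q-value cutoff 0.05) and kept 17237574 ChIP and 17004082 input tags after filtering. The pileup per peak is a coverage signal deposited by the authors, the fold enrichment is a ratio deposited by the authors, and p-values and q-values were deposited as −log10 values averaged over each peak. The authors' table joined peaks to gene records within 5 kb.

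Joined symbols were split and looked up in RefSeq genes (GRCm38.p6), 4781 of 4987 as they stood and 4929 with older symbols. The 97 members include 1 transcribed pseudogene, Pcdhgb8. Strand and 5′ ends came from the deposited records, which matched the gene table within 1 kb at one end for 22 of 26 members (not Cdh12, Cdh6, Pcdh15 and Pcdh7). Shares, medians and Wilson intervals were computed with pandas 2.3.3 and scipy 1.17.1, and the placing of peaks was tested on simulated data. With 1 library per group no test was run. All marked members are named, with fuller values for those with a peak over the start or the largest summed length or fold in each group. Members and lists were chosen with earlier results of these data known. Alternatives were stricter q-value, fold and width limits, overlap with the gene body, gene table positions and the nearest start. The result of a further marker list is not reported here.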

Additional observations from a re-analysis of the deposited data

How the results depend on the processing

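Of 70 values recomputed for 9 results, 44 kept within their limits (a count within 1.5 times, a share or median within its counting interval), 26 moved and 0 reversed. Counts, shares and medians have no direction, so the 0 reversed carries no information. With a mean q-value of 0.05 or less, 24 genes and 46 peaks remained, with a median fold of 3.27 and width of 1.54 kb. At 0.01 or less, 2 genes (Cdh2 and Pcdh8), 3 peaks and 1 peak over a start remained, with a median fold of 3.56 and width of 5.27 kb. The marked shares were then 5.88% of classical, 8.33% of single and 0% of clustered genes, and 11.1% of partner genes. With a fold of 3.5 or more, the same 2 genes remained with 2 peaks and 1 over a start, median fold 3.67 and width 4.36 kb, and shares of 5.88%, 8.33%, 0% and 13.3% in the same order. With a width of 1 kb or more, 47 peaks remained, at a median of 1.97 kb. These limits remove peaks by construction. The share of all protein-coding genes at the same limits was not computed. The shares given here can therefore not be set against the 20.7% found with all called peaks.

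With an overlap of the gene body of at least 500 bp, 3 members kept a peak over the start. Gene table positions gave 24.1% and the nearest start 1.72% for the clustered genes, as the construction of each rule sets. The main value of 10.3% lay under the 20.7% of all protein-coding genes, which rests on the deposited records, and 24.1% lay above it. Gene table positions also exchanged Cdh8 for Pcdh15 among the covered starts. With Cdh22 added, an alternative chosen after seeing the data, 27 genes and 93 peaks were counted. No paired analysis was possible because there was 1 ChIP and 1 input library. The caller's lowest pileup of 9.86 fragments, which 6 member peaks had, limits what was detectable at this depth.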
